A study of Mus musculus with 2 samples.

Results

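The genes described here are immediate early genes and dual-specificity phosphatases, given as a list of 10 symbols. The rule for membership uses no measured value, but the list was drawn up with earlier results of these data known. The list holds the AP-1 subunits Jun, Junb, Fos and Fosl1, the early response genes Egr1, Ier2 and Ier3, and the phosphatases Dusp1, Dusp5 and Dusp6. Of these, 9 were matched among the 11405 genes of the deposited tables by their mouse Ensembl identifiers, and Fos was not analysed here. RNA came from MS1 cells, an endothelial line made from mouse pancreatic islets by immortalisation with a viral large T antigen. The control library came from MS1 cells of genotype wt infected with a lentivirus whose short hairpin RNA is directed at LacZ, a bacterial gene that mice lack. The other library came from MS1 cells labelled Pspc1 knockdown, infected with a lentivirus whose hairpin is directed at Pspc1, a paraspeckle RNA-binding protein. Both groups thus share the cell line and infection with a hairpin lentivirus, but the hairpins have different targets. Each group held 1 library, so no value below has a replicate error and no difference has a p-value. The number and sequence of the hairpins, and whether cells were cloned, are not given in the sources used here.

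Immediate early genes are transcribed within minutes of a growth factor, cytokine or stress signal, without the need for new protein synthesis, and their mRNAs are mostly short-lived. MAP kinases (ERK, JNK and p38) drive much of this response through the serum response factor SRF, its ETS-family partners and CREB. AP-1 is a dimer of a Jun protein with a Fos, ATF or second Jun protein, and its makeup sets which genes it binds and how strongly it activates them. Dual-specificity phosphatases remove both activating phosphates from MAP kinases, and since several are themselves induced by these kinases they act as feedback inhibitors. In endothelium, growth factors, inflammatory cytokines and blood flow all act on these genes.

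Across the 9 genes there was no common direction. Junb, Ier3, Dusp5, Ier2 and Jun had the higher value in the Pspc1 hairpin library, and Fosl1, Egr1, Dusp6 and Dusp1 in the control library. Values are given control first and are the deposited gene values, which are read numbers that the authors scaled with 1 factor per library. A gene met the size rule if the mean of both values was at least 50 and they differed by at least 2-fold, with 0.5 added to both values before the ratio. Of the 7 genes with such a mean, none was 2-fold higher and none 2-fold lower, where 0.551% of all 3629 genes of that mean were higher and 0.937% lower. At 1.5-fold, 2 of the 7 were higher, Ier3 and Dusp5, against 3.39% of all genes, and 1 was lower, Fosl1, against 3.89%. Junb differed most of all 9, but its mean of 42.3 kept it outside the rule. The median log2 ratio of the 9 genes was 0.15, and that of all 11405 genes at any level was -0.05. Among genes of mean 50 or more, the median was 0.15 for the 7 genes and 0.07 for all 3629.

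**Figure D1:**
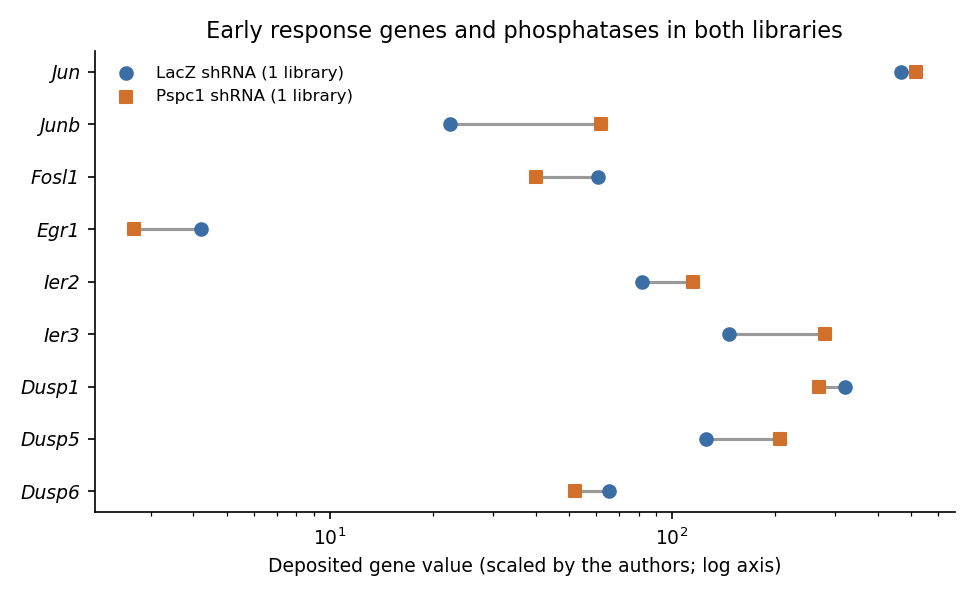
Deposited values (log axis) of the 9 genes in the library with the LacZ hairpin (circles) and that with the Pspc1 hairpin (squares), 1 library each, joined by a line per gene. Junb has the widest gap, from 22.4 to 62.1, while Jun, the gene with the highest values, has 465.2 and 514.6.

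The reads behind the listed genes numbered 64009912 for the control and 53518762 for the Pspc1 hairpin. Pspc1 itself had values of 28.8 and 3.78. Of 14 endothelial markers 12 were listed, 5 with a log2 ratio above 0 and 7 below, and Vwf and Cldn5 were not analysed here. Of the 10 with a mean of at least 50, 1 was at least 1.5-fold higher in the Pspc1 hairpin library, Esam (376.5 and 566.1). Lower by that size were 2, Kdr (148.9 and 77.3) and Cdh5 (859.4 and 511.2), while Pecam1 had 2258 and 2175. Of all genes of that mean, 3.39% were 1.5-fold higher and 3.89% lower. Of markers of other cell types, 2 of 10 fibroblast and pericyte genes were listed, with summed values of 1.87 and 3.37. The macrophage and leukocyte list had 2 of 10 genes, Cd68 and Cd14, with sums of 103.7 and 125.0, nearly all from Cd68, which also serves lysosomes of other cells. The epithelial and islet list had 2 of 10 genes, Krt18 and Krt19, and its sum was 47.7 in the control and 152.1 in the Pspc1 hairpin library, mostly through Krt19 (23.8 and 115.2). Whether the last difference has a part in the values below was not tested. In bulk RNA, a change in the number of cells that express a gene and a change in RNA per cell cannot be told apart.

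Among the AP-1 subunits, Junb was higher in the Pspc1 hairpin library, Fosl1 lower and Jun close to equal. Junb (ENSMUSG00000052837, mm10 chromosome 8, 84974484 to 84978718, minus strand) encodes a Jun protein that activates many promoters less strongly than Jun and can oppose it in the same cell. Its value was 22.4 in the control and 62.1 in the Pspc1 hairpin library, 2.77-fold higher, on 1464 and 3151 reads. The log2 ratio was 1.45, with a 95% counting interval (taken without the added 0.5) of 1.38 to 1.56. With the minimum mean lowered to 20, Junb met the 2-fold rule, as did 0.849% of the 5892 genes of that mean, and its log2 ratio stood at percentile 99.7 among them. A stretch of 173 bases of its 2301 bases of exon is shared with Prdx2 on the opposite strand, a peroxiredoxin gene with values of 343.9 and 470.7. The labels name no strand-marking kit, so reads of that stretch cannot be assigned to either gene.

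The promoter of Junb is shown because Junb had the largest difference of the set. As in all promoters printed here, it covers 250 bases before to 50 after the transcript start, in RefSeq's GRCm38.p6 build (the mm10 assembly), on the gene's own strand, and capitals would mark a match to any of 6 motifs. These were the SRF CArG box and the NF-kB site (both searched by their usual degenerate consensus), the AP-1 site TGANTCA, the cyclic AMP response element TGACGTCA, the ETS core CCGGAA and the EGR site GCGNGGGCG, each on both strands. No motif match lies in the Junb window, at chr8:84978699-84978998:
Junb: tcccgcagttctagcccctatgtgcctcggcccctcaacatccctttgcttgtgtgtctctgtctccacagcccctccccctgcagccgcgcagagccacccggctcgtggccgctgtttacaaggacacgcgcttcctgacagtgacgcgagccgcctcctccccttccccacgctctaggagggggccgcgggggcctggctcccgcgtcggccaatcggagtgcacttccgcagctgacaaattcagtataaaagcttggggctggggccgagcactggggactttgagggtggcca

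Jun (ENSMUSG00000052684, mm10 chromosome 4, 95049034 to 95052222, minus strand) encodes the founding AP-1 subunit, which JNK activates by phosphorylation. It had 465.2 in the control and 514.6 in the Pspc1 hairpin library, 1.11-fold higher, with a log2 ratio of 0.15 and a counting interval of 0.12 to 0.17. That ratio stood at percentile 60.7 of genes of mean 50 or more, well inside their bulk. Scaled by total reads it was 0.04, so its size rested largely on the scaling. Over 232 bases its exon overlaps the antisense gene Junos, which was not analysed here.

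Fosl1 (ENSMUSG00000024912, mm10 chromosome 19, 5447547 to 5455946, plus strand) encodes FRA-1, a Fos-family partner of Jun proteins whose protein is stabilised by ERK. It had 60.6 in the control and 40.1 in the Pspc1 hairpin library, 1.51-fold lower, with a log2 ratio of -0.59 and a counting interval of -0.67 to -0.52. Fosl1 lay at the edge of the 1.5-fold rule in size and, with a mean of 50.4, in level. With either the trimmed-mean (TMM) or the median-of-ratios scaling, or with 5 added to the values in place of 0.5, it was no longer 1.5-fold lower. Of its 2033 bases of exon, 1163 are shared with Ccdc85b on the opposite strand, whose values were 497.2 and 498.5. Fosl1 is thus the gene of the set whose reads are hardest to separate from those of a neighbour.

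Differences between genes of the same pair of libraries do not depend on how the libraries were scaled. They are given here and below from log2 ratios of the reads, without the added 0.5, and so differ slightly from differences of the ratios above. On that scale the log2 ratio of Junb exceeded that of Jun by 1.32, with a counting interval of 1.23 to 1.42, and that of Fosl1 by 2.06 (1.95 to 2.18). The difference between Fosl1 and its relative Fosl2 was -0.88 on the same scale (-0.96 to -0.79). Per kilobase of exon, Jun made up 89.6% of the summed level of Jun, Junb and Jund in the control and 81.6% in the Pspc1 hairpin library. The share of Junb was 5.99% and then 13.6%, and that of Jund 4.39% and 4.77%. With these lengths Jun remained the main Jun-family transcript in both libraries. Of the 1668 bases of exon of Jund, 877 overlap an antisense gene that was not analysed here. The shares here and below use the full exon length. They depend on how reads of shared stretches were counted, which is not known. Among Fosb, Fosl1 and Fosl2, the share of Fosl1 was 48.7% and then 34.2%, that of Fosl2 50.6% and 65.2%, and that of Fosb below 1% in both (0.697% and 0.612%). The summed level per kilobase of the 3 Fos-family genes was 61.3 and 57.8, and that of the 3 Jun-family genes 162.8 and 197.8.

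**Figure D2:**
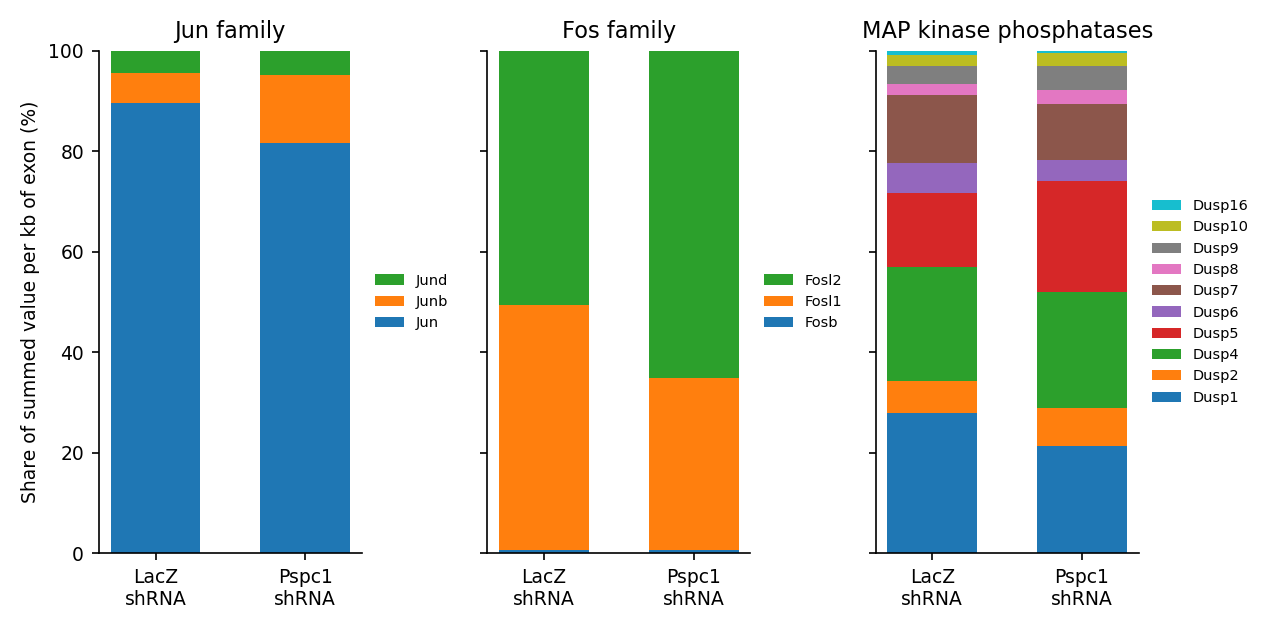
Share (%) of the summed value per kilobase of exon taken by each Jun-family gene, each Fos-family gene analysed and each MAP kinase phosphatase, in the 2 libraries. Junb goes from 5.99% to 13.6% of its family, Fosl1 from 48.7% to 34.2%, and Dusp5 from 14.7% to 21.9%. Levels were divided by the full annotated exon length, including stretches shared with other genes.

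Of the 3 other early response genes, Ier3 and Ier2 were higher in the Pspc1 hairpin library, and Egr1 was near the bottom of the measured range in both. Ier3 (ENSMUSG00000003541, mm10 chromosome 17, 35821684 to 35822923, plus strand) encodes IEX-1, a small protein induced by stress and cytokines that modulates cell survival and ERK signalling. Its value was 146.9 in the control and 280.0 in the Pspc1 hairpin library, 1.91-fold higher, on 9585 and 14212 reads. The log2 ratio was 0.93 with a counting interval of 0.89 to 0.97, at percentile 99.3 of genes of mean 50 or more. It stayed below 2-fold in each of 6 recalculations with another scaling, pseudocount or a correction for length and GC, where it ranged from 0.72 to 0.98. Ier3 shares no exon with another annotated gene, and its neighbour Flot1, 307 bases away and chosen after its values had been seen, had 80.5 and 91.9.

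The Ier3 promoter, at chr17:35821463-35821762 on the plus strand, is shown because Ier3 came closest to the 2-fold rule among genes of sufficient level. It holds 1 match to the NF-kB consensus, in capitals, whose first base lies 92 bases before the transcript start (position -92). Of 32851 promoter windows of this length, 4.51% hold such a match:
Ier3: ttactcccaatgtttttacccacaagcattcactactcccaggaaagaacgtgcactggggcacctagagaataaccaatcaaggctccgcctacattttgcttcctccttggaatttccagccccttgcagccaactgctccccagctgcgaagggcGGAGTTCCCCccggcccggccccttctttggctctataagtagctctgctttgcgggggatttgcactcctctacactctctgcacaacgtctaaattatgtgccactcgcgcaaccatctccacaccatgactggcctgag

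Ier2 (ENSMUSG00000053560, mm10 chromosome 8, 84661331 to 84662852, minus strand) encodes a small nuclear protein induced by growth factors. It had 81.6 in the control and 114.8 in the Pspc1 hairpin library, 1.41-fold higher, with a log2 ratio of 0.49 and a counting interval of 0.44 to 0.55. Ier2 therefore stayed below 1.5-fold, although its ratio lay at percentile 94.2 of genes of mean 50 or more. The difference between Ier3 and Ier2 was 0.44 on the log2 scale without the added 0.5 (0.37 to 0.51). Egr1 (ENSMUSG00000038418, mm10 chromosome 18, 34859823 to 34864984, plus strand) encodes a zinc finger transcription factor that serum and shear stress induce strongly. It had only 4.21 in the control and 2.68 in the Pspc1 hairpin library, on 275 and 136 reads. Its log2 ratio of -0.57 had a counting interval of -0.96 to -0.35, the widest of the set, and was -0.26 with a pseudocount of 5. Per kilobase of exon Egr1 stood at percentiles 19.2 and 15.6 of all genes, whereas Jun, Ier3 and Dusp1 stood above percentile 92 (lowest 92.9, Dusp1 in the Pspc1 hairpin library).

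**Figure D3:**
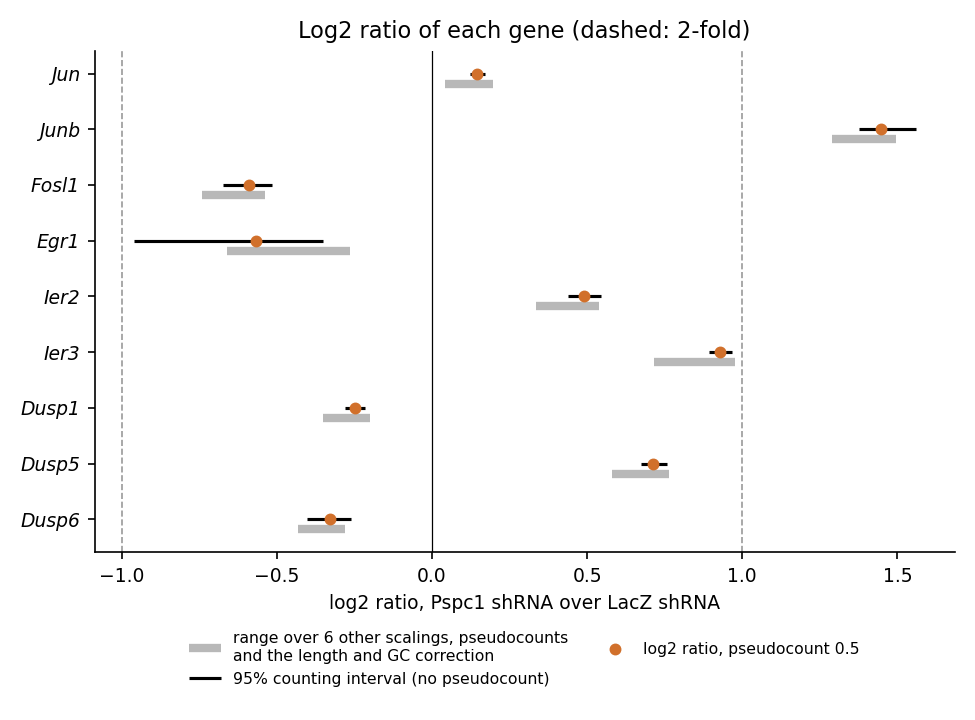
Log2 ratio of each gene, Pspc1 hairpin over LacZ hairpin (points), with the 95% counting interval of the ratio without pseudocount (black) and the range over 6 other scalings, pseudocounts and the length and GC correction (grey). No range crosses 0, and only that of Junb lies wholly beyond the dashed 2-fold lines, its lowest value being 1.29.

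The 3 phosphatases did not move together: Dusp5 was higher in the Pspc1 hairpin library, and Dusp1 and Dusp6 were lower by less than 1.5-fold. Dusp5 (ENSMUSG00000034765, mm10 chromosome 19, 53529109 to 53542431, plus strand) encodes a nuclear phosphatase that acts on ERK and anchors it in the nucleus. It had 125.7 in the control and 206.6 in the Pspc1 hairpin library, 1.64-fold higher, on 8204 and 10487 reads. The log2 ratio was 0.71 with a counting interval of 0.68 to 0.76, at percentile 98.1 of genes of mean 50 or more. After the correction for length and GC it was 0.58, just under 1.5-fold. Dusp5 shares 547 of its 2473 bases of exon with an antisense gene that was not analysed here.

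The Dusp5 promoter, at chr19:53528895-53529194 on the plus strand, is shown because it carries the binding motif of SRF, the factor that links ERK to early response genes. It holds 2 matches to the CArG box, side by side in 1 run of capitals, which start at positions -82 and -72 from the transcript start. Such a match occurs in 1.63% of all promoter windows:
Dusp5: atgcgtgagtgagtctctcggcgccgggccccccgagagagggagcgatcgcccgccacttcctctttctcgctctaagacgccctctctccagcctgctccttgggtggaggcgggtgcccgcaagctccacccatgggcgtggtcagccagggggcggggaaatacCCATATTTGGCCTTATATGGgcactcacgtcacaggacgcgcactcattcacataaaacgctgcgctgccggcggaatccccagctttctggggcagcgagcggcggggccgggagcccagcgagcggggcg

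Dusp1 (ENSMUSG00000024190, mm10 chromosome 17, 26505590 to 26562128, minus strand) encodes MKP-1, a nuclear phosphatase that acts on p38 and JNK as well as ERK. It had 319.6 in the control and 269.0 in the Pspc1 hairpin library, 1.19-fold lower, with a log2 ratio of -0.25 and a counting interval of -0.28 to -0.22. Dusp6 (ENSMUSG00000019960, mm10 chromosome 10, 99263231 to 99267489, plus strand) encodes MKP-3, a cytoplasmic phosphatase specific to ERK that is widely used as a readout of ERK activity. It had 65.6 in the control and 52.1 in the Pspc1 hairpin library, 1.26-fold lower, with a log2 ratio of -0.33 and a counting interval of -0.40 to -0.26. Both ratios lay within the lower 15% of genes of mean 50 or more, at percentiles 14.8 and 10.4, and neither reached 1.5-fold. Without the added 0.5, the log2 ratio of Dusp5 exceeded that of Dusp6 by 1.05 (0.97 to 1.13) and that of Dusp1 by 0.97 (0.91 to 1.02). Between Dusp1 and Dusp6 the difference was 0.08 (0.01 to 0.16). The 2 ERK-specific enzymes of the set, 1 nuclear and 1 cytoplasmic, thus differed from each other more than Dusp6 did from the broader Dusp1.

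The Dusp1 promoter, at chr17:26508423-26508722 on the minus strand, is shown for contrast with that of Dusp5. It holds 1 cyclic AMP response element, at position -143, which is the palindrome TGACGTCA. This motif occurs in 1.79% of all promoter windows, and none of the other 5 motifs matched here or in the windows of Jun and Dusp6:
Dusp1: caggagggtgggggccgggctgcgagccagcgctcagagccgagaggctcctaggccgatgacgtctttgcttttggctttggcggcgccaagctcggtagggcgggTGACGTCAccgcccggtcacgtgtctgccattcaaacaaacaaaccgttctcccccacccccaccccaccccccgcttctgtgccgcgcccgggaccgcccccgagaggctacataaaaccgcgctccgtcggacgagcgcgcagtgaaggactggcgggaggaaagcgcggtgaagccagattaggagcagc

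Per kilobase of merged exon, Dusp1 and Dusp5 changed places in order of level, but this order rests on the annotated length of Dusp1. The annotated gene spans 56539 bases with 3311 of exon, and the transcript start of the promoter printed above lies far inside that span. A shorter exon length would raise the level and share of Dusp1 in both libraries, and could undo the change of order. Dusp1 had 96.5 per kilobase in the control and 81.2 in the other, and Dusp5 had 50.8 and 83.5. The ratio of Dusp5 to Dusp1 was thus 0.527 in the control and 1.03 in the Pspc1 hairpin library. Across the 10 MAP kinase phosphatases measured, the share of Dusp1 was 27.8% and 21.3%, that of Dusp4 22.8% and 23.2%, that of Dusp5 14.7% and 21.9%, and that of Dusp6 6.04% and 4.36%. With these lengths Dusp4, a nuclear phosphatase outside the set with values of 216.9 and 242.2, held the largest share in the Pspc1 hairpin library. The summed level per kilobase of all 10 was 346.6 and 381.6. Split by location and substrate, it was 248.6 and 282.1 for the nuclear inducible enzymes (Dusp1, Dusp2, Dusp4 and Dusp5), 80.3 and 76.7 for the cytoplasmic ERK enzymes (Dusp6, Dusp7 and Dusp9), and 17.7 and 22.9 for those that act on JNK and p38 (Dusp8, Dusp10 and Dusp16). The log2 ratios of these 3 sums were 0.18, -0.07 and 0.37, so the sums differed less than Dusp5 did from Dusp1.

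**Figure D4:**
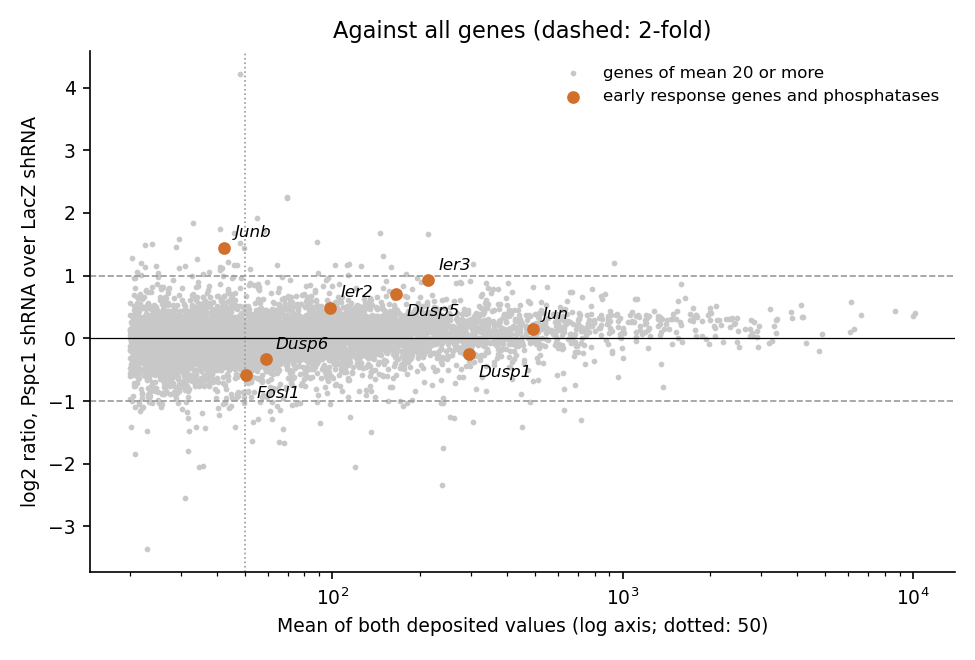
Log2 ratio, Pspc1 hairpin over LacZ hairpin, against the mean of both deposited values (log axis) for 5892 genes of mean 20 or more (grey), with 8 of the 9 genes marked. Junb stands above the dashed 2-fold line but left of the dotted minimum of 50, and the others lie between the 2-fold lines.

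Ordered by value per kilobase of exon in the control library, the genes ran from Jun (145.9) and Ier3 (129.9) through Dusp1 (96.5), Ier2 (53.6), Dusp5 (50.8), Fosl1 (29.8), Dusp6 (20.9) and Junb (9.75) to Egr1 (0.940). In the Pspc1 hairpin library Ier3 came first (247.5), before Jun (161.4), Dusp5 (83.5), Dusp1 (81.2), Ier2 (75.4), Junb (27.0), Fosl1 (19.8), Dusp6 (16.6) and Egr1 (0.598). Junb thus passed Fosl1 and Dusp6, and Ier3 passed Jun. Whether neighbours in either order differ beyond the spread between cultures cannot be said with 1 library per group.

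Most of the genes are compact, a feature that the choice of symbols did not use. Exons were counted in 1 transcript per gene, the longest of the annotation's basic set. That transcript has 1 exon for Jun, Junb and Ier2, as for 5.90% of all genes with such a transcript. All 9 have at most 4 exons by this count, as do 25.3% of all genes. The median exonic length was 2473 bases against 4327 for all genes, with Egr1 (4484) above that of all genes. The annotated genomic span was below the median of all genes (21584 bases) for 8 of the 9. The exception was Dusp1 (56539 bases), most of it upstream of the promoter printed here. The median GC content was 56.7% against 50.5%, with only Dusp6 (49.0%) below the median of all genes. A correction of all genes for length and GC lowered the log2 ratio of 8 of the 9 genes, most for Ier3 (from 0.93 to 0.72), and left that of Dusp6 at -0.33. The genes lie on 6 chromosomes. Of the 29 other listed genes within 50 kilobases of any of them, taken at any level, none differed by 2-fold. At 1.5-fold 3 differed, named after their values were seen: Lyl1 near Ier2 (log2 ratio 0.64), Mdc1 near Ier3 (-0.59) and Etf1 near Egr1 (-0.75). Of all 11405 genes at any level, 1.31% were 2-fold higher and 2.68% lower. At 1.5-fold these shares were 4.81% and 12.8%.

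AU-rich elements, which recruit decay factors to short-lived mRNAs, were counted after the stop codon in the longest coding transcript of 10251 genes, Egr1 not among them. The pentamer ATTTA occurred in 7 of 8 genes of the set and in 69.2% of all these genes. Ier3 had 5 copies in 613 bases, or 8.16 per kilobase (percentile 98.6 of all genes), Dusp1 had 4 copies (5.80 per kilobase), Junb 2 (4.12) and Jun 4 (3.24), against a median of 1.28 per kilobase. Dusp5, Dusp6 and Fosl1 had 1 copy each, and Ier2 had none. High and low pentamer densities thus occurred both among the genes higher in the Pspc1 hairpin library and among those lower there. Whether AU-rich elements have a part in the differences was not tested. The stricter nonamer TTATTTATT occurred in 8.08% of genes and, of the set, in Dusp1 alone, whose 2 sites are shown with the nonamer in capitals, 103 and 392 bases after the stop codon:
Dusp1 site 1: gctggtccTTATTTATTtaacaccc
Dusp1 site 2: ttttacctTTATTTATTtttgtgta

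Other early response genes went both ways, and most of those with a mean of at least 50 stayed below 1.5-fold. Of 14 other AP-1 and ATF family genes, 6 had a mean of at least 50, all 6 had a log2 ratio above 0 (as did 60.1% of all genes of that mean) and none reached 1.5-fold. The largest ratios among these were 0.43 for Jdp2, an AP-1 repressor (134.7 and 181.5), 0.28 for Fosl2 (300.4 and 364.8), and 0.27 for Maff, a small Maf protein (198.7 and 240.4). Of 20 other early response transcription factors, 6 had such a mean, and 1 met the 2-fold rule as higher. This was Cebpd, a C/EBP factor of the acute phase response, with 26.9 in the control and 89.0 in the Pspc1 hairpin library (3.31-fold, log2 ratio 1.71). Its control value lay below 50, so Cebpd reached the minimum mean only through the Pspc1 hairpin library. Klf2, an endothelial factor induced by flow, had 177.8 and 202.8, Myc 59.7 and 53.6, and Ets2 173.5 and 160.2. Below the minimum mean, Cebpb had 12.2 and 35.7 and Nfil3 1.53 and 5.06.

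Of 28 early response genes that do not bind DNA, 19 had a mean of at least 50. Among these Nfkbia, the feedback inhibitor of NF-kB, was 2.01-fold higher in the Pspc1 hairpin library (75.1 and 151.2). It lost the 2-fold call when scaled by total reads, with a pseudocount of 5 and after the correction for length and GC. The GTPase gene Rhob (559.8 and 884.7) was the only other past 1.5-fold, and the chemokine gene Ccl2 had 58.2 and 87.2. Cxcl1, a neutrophil chemokine whose mean of 47.8 lay just under the minimum, had 4.46 in the control and 91.2 in the Pspc1 hairpin library, 20.5-fold higher on 291 and 4630 reads. Other genes under the minimum were Tnfaip3 (2.31 and 6.76), Phlda1 (8.57 and 19.8) and Arc (4.58 and 1.91).

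Upstream and feedback genes of the MAP kinase pathways showed no 2-fold difference at a mean of 50 or more. Of 13 Ras-ERK cascade genes of that mean, 2 were at least 1.5-fold higher (15.4%, against 3.39% of all genes of that mean) and none lower (against 3.89%). These were Rps6ka2, an RSK kinase that ERK activates (74.2 and 136.2), and Rras (45.1 and 69.7). The kinase gene Mapk3, which encodes ERK1, had 284.5 and 376.7. Of the JNK and p38 genes 8 had that mean and none reached 1.5-fold, with Mapk11 (68.5 and 98.6), Rps6ka4 (280.3 and 343.4), Mapk14 (163.9 and 147.1) and Mapk12 (296.7 and 269.8) differing most. Below the minimum, Mapk8, which encodes JNK1, had 9.09 and 4.12 and Map2k6 13.3 and 5.89. Among Sprouty, Spred and other inhibitors, 5 had that mean and none reached 1.5-fold, the largest ratios being those of Errfi1 (94.7 and 127.6) and Pebp1 (826.2 and 1072). The same was so of the 3 other MAP kinase phosphatases of that mean (Dusp2, 44.3 and 57.9; Dusp4; Dusp7, 157.4 and 142.3), the 3 atypical dual-specificity phosphatases (Dusp3, Dusp11 and Dusp14) and the 3 ERK5 cascade genes (Mapk7, Mef2d and Map3k3). Both SRF-list genes of that mean had lower values in the Pspc1 hairpin library, Elk3 (91.8 and 66.7) and Srf itself (130.5 and 118.5), without reaching 1.5-fold.

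Genes that respond to ERK or AP-1 gave no common direction either. Of 7 ERK-responsive transcripts of mean 50 or more, Ier3 was the only one past 1.5-fold. Cyclin D1 (Ccnd1), chosen after its values had been seen, had 2643 and 2392. Their median log2 ratio was -0.06, against 0.07 for all genes of that mean. Of 11 AP-1 target genes, Nqo1, a quinone reductase, was 1.68-fold higher (48.3 and 81.0), while Hmox1, heme oxygenase, was 1.79-fold lower (432.2 and 241.4). Plau, the urokinase gene, had 1550 and 1162. Of 18 AU-rich mRNA binding and decay genes, 2 had a log2 ratio above 0, where 45.2% of all genes did, with a median of -0.24. Only 6 had a mean of 50 or more, and none of these reached 1.5-fold. Over the other scalings, pseudocounts and the length and GC correction, the ranges of Elavl1 (-0.3 to 0.101), Hnrnpd (-0.245 to 0.199) and Khsrp (-0.077 to 0.077) spanned 0. Those of Cnot3, Cnot8 and Zfp36l2 stayed below 0, so the count above 0 depends on the processing. Zfp36, a decay factor that is itself an early response gene and was chosen after its values had been seen, had 4.74 and 9.75, the deadenylase genes Cnot6 30.5 and 14.0 and Cnot6l 9.29 and 4.35. Of 8 heat shock genes of mean 50 or more, which cell stress also induces, 4 had a log2 ratio above 0 and 4 below. At least 1.5-fold higher were 2 (25.0%, against 3.39% of all genes), Hspb1 (281.6 and 520.9) and Bag3 (69.6 and 106.0). None was 1.5-fold lower (against 3.89%), Hspd1 having 132.2 and 90.5. Under the minimum, Hsp90aa1 had 28.8 and 10.1. Over all 193 genes of these lists outside the set, 94 had a mean of at least 50, of which 9 were at least 1.5-fold higher (9.57%, against 3.39% of all genes of that mean) and 1 lower (1.06%, against 3.89%). The lists were chosen with earlier results known, and this share is a description of 2 libraries. Of the 9 higher genes, Cebpd, Rras and Nqo1 had control values below 50. They reached that mean only through the Pspc1 hairpin library, where they were higher.

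**Figure D5:**
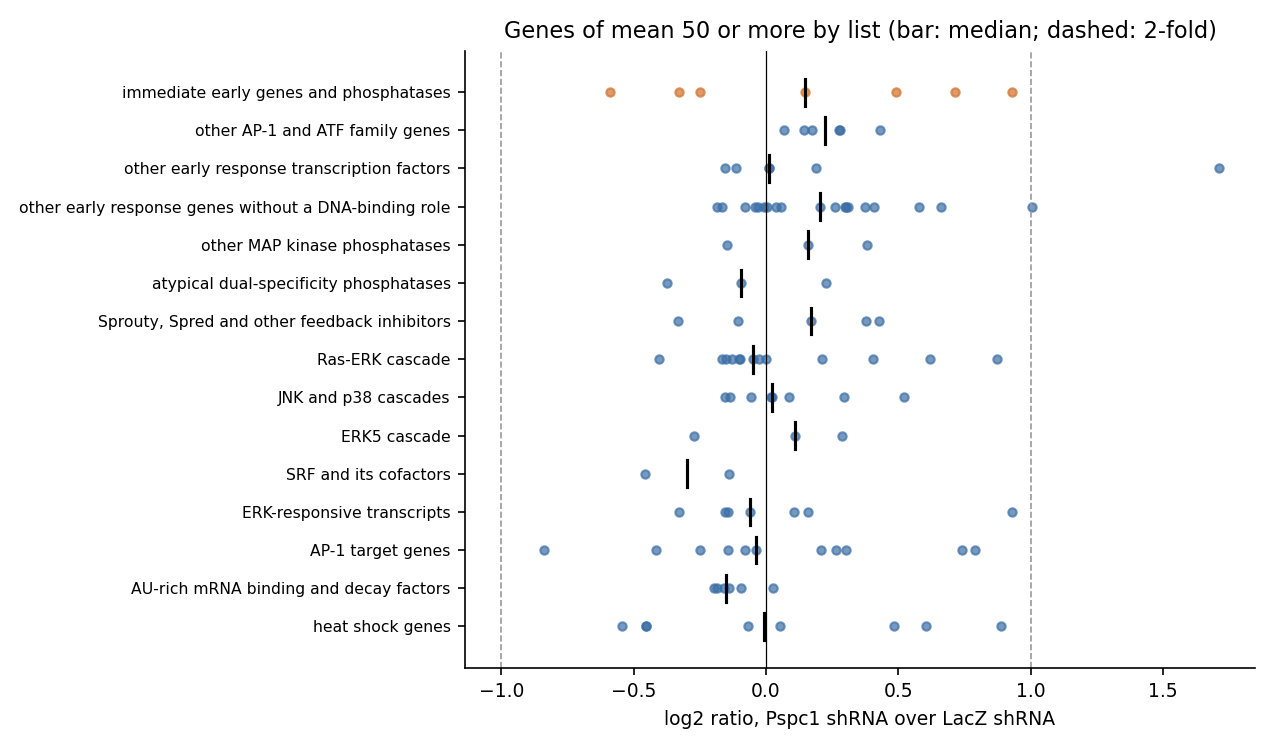
Log2 ratio of each gene of mean 50 or more, by list, with the list's median as a bar. The 7 genes of the set (top row) spread from -0.59 to 0.93, and Cebpd at 1.71 and Nfkbia, just past 2-fold, are the only other genes shown beyond the dashed lines.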

How the data were processed

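Poly-A RNA of 2 MS1 libraries was sequenced, per the labels' protocols, with 1 library per group. The submitters' processing notes list Trimmomatic (0.39), HISAT2 (2.1.0), then featureCounts (2.0.0) and also DESeq (1.39.0), and the build mm10. What each tool did, the gene annotation and the scaling formula are not given in the sources used here. Each deposited table gives a signal per gene, already scaled by the authors. Every value was a whole multiple of a step (0.0153 in the control, 0.0197 in the Pspc1 hairpin library, tolerance 0.01 reads), and dividing by it gave the reads.

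The values were used as deposited. The log2 ratio was log2((Pspc1 hairpin + 0.5)/(LacZ hairpin + 0.5)). With 1 library per group no test across genes could be fitted. The 95% counting intervals are exact (conditional binomial, Clopper-Pearson) for a gene and a normal approximation on the log scale for a difference between 2 genes. They cover counting error only, without molecular identifiers, and compare 2 libraries. Symbols matched 11399 of 11405 identifiers. Positions, exonic length (merged exons) and exon overlaps came from GENCODE M21 on mm10, and promoters from RefSeq, found for 6 of the 9 genes. The correction for length and GC subtracted a cubic fit over genes of mean 20 or more.

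The genes and lists were chosen with earlier results of these data known. The text names all genes of the set and, per related list, up to 4 genes of mean 50 or more with the largest ratios and genes 2-fold apart. Some genes that this rule would name are not reported here. Other names are marked as chosen after their values were seen. The size rule, the counting intervals, the recovery of reads and the TMM scaling were tried on simulated reads. These had counting error only, and all planted differences were past 2-fold. The spread between cultures and the other steps were not covered. Python 3.11.15, numpy 2.4.6, pandas 2.3.3, scipy 1.17.1 and matplotlib 3.10.9 were used.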

Additional observations from a re-analysis of the deposited data

How the results depend on the processing

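Under 9 other settings (3 scalings, 2 pseudocounts, a correction for length and GC, and minimum means of 20, 100 or none), no gene of the set was called 2-fold lower. The count called 2-fold higher was 0 except with a minimum mean of 20 or with none, where it was 1, Junb. The 6 settings that act on single values gave 54 log2 ratios for the 9 genes, of which none changed sign and 23 left the counting interval of the main value. The median log2 ratio of the set was 0.15, and 0.042 with total reads, 0.188 with TMM scaling, 0.196 with median-of-ratios scaling, 0.047 after the length and GC correction, 0.32 with a minimum mean of 20 and 0.43 with one of 100. The median over all genes moved to -0.15 with total reads. It was taken over genes at any level, so the medians with a minimum mean of 20 or 100 have no matched all-gene median. Of 94 related-list genes of mean 50 or more, 2 met the 2-fold rule, where 0.551% of all genes were higher and 0.937% lower. It was 1 with total reads, a pseudocount of 5, the length and GC correction or a minimum mean of 100. All-gene shares there were 0.468% to 0.572% higher and 0.744% to 1.38% lower. With a minimum mean of 20 it was 5 of 122 (all genes 0.849% higher, 1.21% lower). With none it was 14 of 193, 7 higher and 7 lower (all genes 1.31% and 2.68%). No paired analysis was possible because each group has 1 library, and for the same reason no library could be left out. Depth limits Egr1 most, with 136 reads in the Pspc1 hairpin library.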
